A study of Homo sapiens with 12 samples.

Results

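ITGBL1 and 9 integrin subunits (ITGA1, ITGA2, ITGA3, ITGA4, ITGA5, ITGAV, ITGB1, ITGB3 and ITGB5) were followed across 4 groups of BJ cells, a line of human foreskin fibroblasts. These are 10 of the 20046 gene symbols in the platform annotation of the Illumina BeadChip. All probes that carry 1 of them were taken, which gave 18 of 47231 probes, 1 for ITGBL1 and 17 for the integrins. ITGBL1 was selected on its signal in si-EZH2 and si-Control, since it went below detection with the siRNA against EZH2, so that its levels relative to the control siRNA are given as a description with no test. Every group received a lentivirus for 72 h and then an siRNA for 60 h. The si-Control group received the virus labelled LV-C and the control siRNA. The si-EZH2 group received LV-C and the siRNA against EZH2. The EZH2 re-expression group received the same EZH2 siRNA after a virus carrying EZH2 that resists the siRNA, and the T350A re-expression group received it after a virus carrying the T350A mutant of EZH2. Each group had 3 arrays, and all 12 were on 1 chip. The labels do not say whether the 3 came from separate cultures. The p-values set each difference against the spread between arrays, moderated over all tested probes, and that spread may be technical. The number of arrays limits the precision.

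Integrins are cell surface receptors made of an alpha and a beta chain. They bind extracellular matrix proteins on the outside and are linked through adaptor proteins to the actin cytoskeleton on the inside. In fibroblasts they carry adhesion to fibronectin, collagens and laminins, and those with an alpha V chain also bind the latent form of TGF-beta. ITGBL1 encodes a protein related to the stalk of integrin beta chains, with EGF-like repeats and without the part that binds ligand or the part that crosses the membrane. EZH2 is the enzyme in Polycomb repressive complex 2 that methylates histone H3 at silenced genes, and in the T350A mutant an alanine replaces a threonine that cyclin-dependent kinases phosphorylate.

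The upstream sequences of ITGBL1, ITGA5 and ITGAV, among the genes whose levels are described in most detail, are shown here to place them in the genome. ITGA3, described in as much detail, had no entry among the promoter windows used. Each is the 250 bases before the annotated start of transcription in RefSeq (build GRCh38.p14), read 5′ to 3′ on the strand of the gene, with every CG dinucleotide in capitals. No mark or binding was measured on them here. The ITGBL1 window lies at chr13:101452425-101452674 on the plus strand, the ITGA5 window at chr12:54419267-54419516 on the minus strand, and the ITGAV window at chr2:186589806-186590055 on the plus strand.
ITGBL1: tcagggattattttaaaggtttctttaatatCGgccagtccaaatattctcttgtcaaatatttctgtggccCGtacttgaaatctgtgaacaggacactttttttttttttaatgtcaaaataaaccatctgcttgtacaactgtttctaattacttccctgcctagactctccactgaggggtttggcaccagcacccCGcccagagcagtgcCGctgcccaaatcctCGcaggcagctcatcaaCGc
ITGA5: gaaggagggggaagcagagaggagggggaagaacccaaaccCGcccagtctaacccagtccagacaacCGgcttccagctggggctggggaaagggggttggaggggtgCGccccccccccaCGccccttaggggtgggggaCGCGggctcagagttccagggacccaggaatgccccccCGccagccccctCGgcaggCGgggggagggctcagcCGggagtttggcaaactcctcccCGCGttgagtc
ITGAV: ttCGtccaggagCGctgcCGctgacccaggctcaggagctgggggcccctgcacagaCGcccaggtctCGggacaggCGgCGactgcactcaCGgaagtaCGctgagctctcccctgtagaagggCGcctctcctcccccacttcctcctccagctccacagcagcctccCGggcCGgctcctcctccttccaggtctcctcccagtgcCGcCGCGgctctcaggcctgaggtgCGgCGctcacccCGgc

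The ITGBL1 window held 6 CG dinucleotides and 44% G and C. Of 35116 RefSeq promoter windows of this length, 41.09% held as few, and the median was 11. The ITGA5 window held 12 and the ITGAV window 18. A second annotated start of ITGAV had 1 CG in its window. Over the 11 windows of the 7 integrin genes with an entry (ITGA1, ITGA2, ITGA4, ITGA5, ITGAV, ITGB1 and ITGB5), the number ran from 1 to 32. CG reads the same on both strands, so 1 count covers both.

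As a check of the labels, EZH2 itself was measured by 3 probes, all in normalized log2 signal (mean ± SD, n = 3 per group). Probe ILMN_1652913 gave 6.33 ± 0.17 for si-Control, 5.39 ± 0.24 for si-EZH2, 8.55 ± 0.08 in EZH2 re-expression and 7.99 ± 0.07 in T350A re-expression. Probe ILMN_2364529 was detected on 0 of 3 si-EZH2 arrays and reached 8.48 with EZH2 and 7.18 with T350A. By both of these probes the re-expression groups differed in EZH2 signal. T350A against EZH2 re-expression is thus no comparison of the mutant with EZH2 at equal signal. Probe ILMN_1708105 gave 6.79 for si-Control, 5.70 for si-EZH2 and 5.84 and 5.91 in the re-expression groups. Between 20658 and 21910 probes per array were detected at a detection p under 0.05. All 10 fibroblast markers (such as COL1A1, DCN and THY1) were detected on all 12 arrays. Of 7 epithelial markers, EPCAM, KRT8 and KRT19 were detected on all 12 and 3 on none. TEK was the 1 of 5 endothelial markers detected on all 12, CD68 the 1 of 5 leukocyte markers on the array, and CNN1 and ACTA2 the 2 of 4 smooth muscle markers.

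ITGBL1 (probe ILMN_1653719) was detected on every si-Control array. It was at or near the detection limit on most arrays of cells that received the EZH2 siRNA, with or without viral EZH2. Its normalized log2 signal was 6.44, 6.71 and 6.38 on the 3 si-Control arrays, with a detection p of 0 on each. On the si-EZH2 arrays it was 4.84, 4.71 and 4.91, with detection p of 0.0935, 0.187 and 0.0506, and thus detected on 0 of 3. The lowest si-Control array stood above every array of the other groups. In bulk RNA, fewer cells of a type and less RNA per cell cannot be told apart.

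With EZH2 re-expression the ITGBL1 signal was 4.89, 4.91 and 4.92, detected on 1 of 3 arrays (detection p of 0.0584, 0.0675 and 0.0468). With T350A re-expression it was 4.89, 5.19 and 5.86, detected on 2 of 3 (detection p of 0.0675, 0.0156 and 0.0013). The EZH2 arrays lay close to the si-EZH2 arrays and to the detection limits, which ran from 4.90 to 4.98 over the 12 arrays. T350A replicate 3 stood highest among the arrays with the EZH2 siRNA and lay under all 3 si-Control arrays. The raw intensities, before any correction, were lowest in the same 2 groups, with 144, 149 and 126 for si-Control, 65.7, 59.0 and 63.1 for si-EZH2, 62.9, 62.7 and 65.2 with EZH2, and 71.1, 75.1 and 92.1 with T350A.

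**Figure D1:**
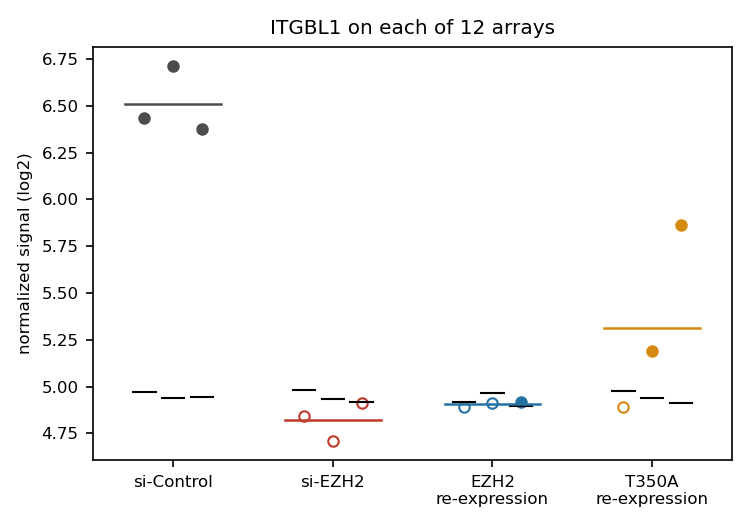
Normalized log2 signal of ITGBL1 (y axis) on each of the 12 arrays by group (x axis, 3 arrays each). Filled points are detected at a detection p under 0.05 and open points are not, long lines are group means, and short black lines mark the detection limit of each array. The si-Control arrays sit between 6.38 and 6.71, and the others between 4.71 and 5.86.

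Group means of ITGBL1 were 6.51, 4.82, 4.90 and 5.31 log2 units in si-Control, si-EZH2, EZH2 and T350A re-expression. Since no si-EZH2 array detected the probe, its level there has only an upper bound, and ITGBL1 was at least 2.96-fold lower in si-EZH2 than in si-Control. The bound sets each undetected array at the lowest signal of a detected probe on it. The measured difference from si-Control was -1.69 for si-EZH2, -1.60 for EZH2 and -1.19 for T350A re-expression (log2). Without background correction the same differences were -1.01, -0.95 and -0.73, because the background then stays in both signals. Without T350A replicate 3, the T350A difference from si-Control was -1.47.

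ITGBL1 was chosen on its signal in si-EZH2 and si-Control, and its difference between both re-expression groups was tested. Earlier results of these data were known at that choice. The probe was detected on 1 of 3 EZH2 and 2 of 3 T350A arrays, so that the undetected arrays give only an upper bound on the level of ITGBL1. The measured signals were 0.41 ± 0.18 log2 units apart, with T350A the higher (SE, n = 3 per group, interval from 0.02 to 0.79), which did not pass limma's test (adjusted p = 0.541). In that comparison 0.00858% of the 23313 tested probes were called at an adjusted p under 0.05, 0% higher and 0.00858% lower. Without T350A replicate 3 the difference was 0.13, so that its size rested on that array.

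The members were chosen with earlier results of these data known. Gene symbols alone then fixed the 17 integrin probes. Of these, 14 were detected on at least 3 of 12 arrays and tested with all other probes. The 3 that were not were 1 of 4 probes of ITGB1 (ILMN_1754233, 0 of 12 arrays) and 2 of 5 of ITGB5 (ILMN_1761674, 1 array, and ILMN_1701619, 0 arrays), and each of these genes had other probes that were detected on all 12. Calls were made at an adjusted p under 0.05, with the adjustment over all tested probes. With the EZH2 siRNA alone, 0 of the 14 integrin probes were called against si-Control by limma, where 2.84% of all tested probes were (1.56% higher, 1.29% lower); 4 reached an unadjusted p under 0.05, as did 15.9% of all tested probes. Their differences ran from -0.33 to 0.26 log2 units with a median of 0.02, beside a median of -0.00341 over all probes. A count of 0 of 14 was near the background share of 2.84%. It does not set the 9 integrin genes apart from ITGBL1, which was chosen on this contrast.

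Against si-Control, 3 of 14 integrin probes were called with EZH2 re-expression, ITGA3 and ITGA5 higher and ITGAV lower. Of all probes, 7.24% were called (3.6% higher and 3.64% lower). An unadjusted p under 0.05 was reached by 5 of the 14 and by 22.8% of all tested probes. The median difference over the 14 was 0.15. With T350A re-expression against si-Control 1 was called, ITGAV lower, against 3.56% of all probes (1.75% higher and 1.81% lower). Here 7 reached an unadjusted p under 0.05, beside 18.99% of all tested probes, with a median difference of 0.11. The count of calls was 4 without background correction, with an offset of 50, with the authors' values and with limma-trend. It was 3 with the stricter detection filter, 0 with the 2 groups alone, and 0 or 1 with each array left out in turn. Against si-EZH2, 2 were called with EZH2 re-expression, ITGA3 higher and ITGAV lower, against 2.88% of all probes (1.5% higher and 1.38% lower). In that comparison 3 reached an unadjusted p under 0.05, as did 18.4% of all tested probes. With T350A against si-EZH2 limma called 0, where 0.103% of all probes were called (0.0472% higher, 0.0558% lower); 2 integrin probes reached an unadjusted p under 0.05, as did 13.7% of all tested probes, so that their share was near the background. Between T350A and EZH2 re-expression it called 0 as well, and 0 had an unadjusted p under 0.05, beside 8.79% of all probes. The comparisons share arrays, so their values are given side by side. Every call was of less than 1.5-fold.

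**Figure D2:**
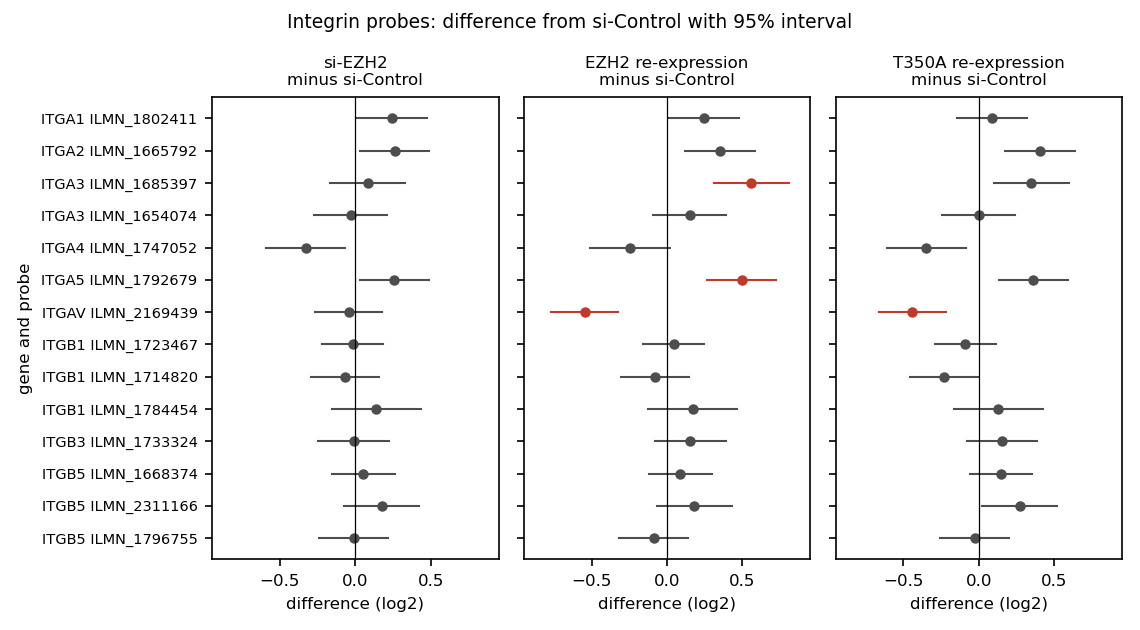
Difference in normalized log2 signal from si-Control (x axis) of the 14 tested integrin probes (y axis) in si-EZH2, EZH2 and T350A re-expression (3 arrays a group). Points are differences, lines are 95% intervals of limma's fit, and red marks an adjusted p under 0.05. ITGAV lies at -0.55 with EZH2 and -0.44 with T350A, and no probe is red in si-EZH2.

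Among the alpha chains, ITGAV had the smallest adjusted p of the 9 subunits. Its product pairs with several beta chains, including those of ITGB3 and ITGB5, into receptors for vitronectin. Its log2 signal (probe ILMN_2169439) was 11.36, 11.34 and 11.33 for si-Control, against 11.36, 11.15 and 11.38 for si-EZH2. It was 10.81, 10.67 and 10.90 with EZH2 and 10.97, 10.77 and 10.96 with T350A. All 6 re-expression arrays lay under all 6 arrays with LV-C. ITGAV fell with EZH2 by 0.55 ± 0.10 against si-Control (adjusted p = 0.0064) and by 0.50 ± 0.10 against si-EZH2 (1.42-fold, adjusted p = 0.0206; SE, n = 3 per group, limma). With T350A it fell by 0.44 ± 0.10 against si-Control (adjusted p = 0.0308), and the difference from si-EZH2 of -0.40 was not called (adjusted p = 0.126). T350A and EZH2 differed by 0.10, with an interval from -0.12 to 0.33 (adjusted p = 0.833).

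The EZH2 fall of ITGAV against si-Control held with any 1 array left out (adjusted p up to 0.0366). The fall against si-EZH2 was lost without si-EZH2 replicate 1 or 3 or EZH2 replicate 1 or 2 (adjusted p of 0.0604 to 0.0929). The T350A fall was lost without any 1 of the 3 si-Control or the 3 T350A arrays (0.0562 to 0.106), and both of these were lost when only the 2 groups compared were fitted (0.0504 and 0.0769).

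ITGA3 encodes the alpha chain of a laminin receptor. Its probe ILMN_1685397 gave 9.48, 9.53 and 9.67 for si-Control, against 9.83, 9.56 and 9.54 for si-EZH2, then 10.08, 9.96 and 10.31 with EZH2 and 9.88, 9.85 and 10.00 with T350A. The EZH2 arrays lay above all arrays of si-Control and si-EZH2. ITGA3 rose with EZH2 by 0.56 ± 0.12 against si-Control (1.47-fold, adjusted p = 0.0103) and by 0.47 ± 0.12 against si-EZH2 (1.39-fold, adjusted p = 0.0413). With T350A the difference from si-Control was 0.35 (adjusted p = 0.114). The first call was lost without EZH2 replicate 3 (adjusted p = 0.053). The second was lost without si-Control replicate 1 or 2, si-EZH2 replicate 2 or 3, T350A replicate 1 or any EZH2 replicate (0.0502 to 0.156), with the 2 groups alone (0.0806), with median scaling (0.0955) and with no filter on detection (0.0541). The other ITGA3 probe, ILMN_1654074, was detected on 7 of 12 arrays, between 4.82 and 5.17, and was called in no comparison.

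ITGA5 encodes the alpha chain of the main fibronectin receptor. Its log2 signal (probe ILMN_1792679) was 10.27, 10.38 and 10.40 under si-Control, 10.49, 10.78 and 10.55 under si-EZH2, 10.81, 10.92 and 10.80 with EZH2, and 10.70, 10.84 and 10.60 with T350A. The si-Control arrays were the lowest 3 of the 12. The difference from si-Control was 0.26 in si-EZH2 (adjusted p = 0.242), 0.49 ± 0.11 with EZH2 (1.41-fold, adjusted p = 0.0127) and 0.36 with T350A (adjusted p = 0.0753), so that of these 3 the EZH2 difference passed. That call was lost without si-Control replicate 1 (0.054) or EZH2 replicate 2 (0.0556).

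**Figure D3:**
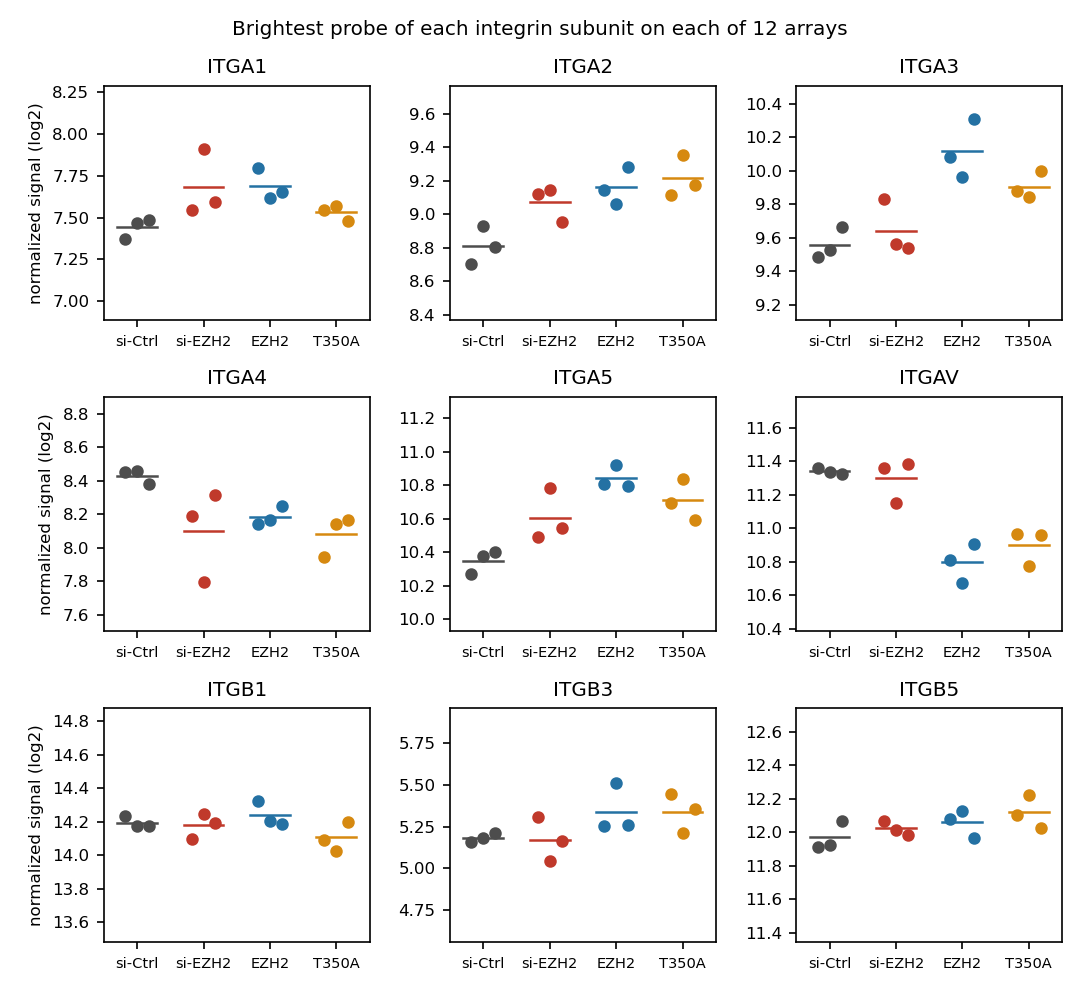
Normalized log2 signal (y axis, the same span in each panel) of the probe with the highest mean for each of the 9 integrin subunits, on each array by group (x axis). Points are arrays and lines are group means of 3. The re-expression arrays of ITGAV sit between 10.67 and 10.97, under the other 6.

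Each of the calls in ITGAV, ITGA3 and ITGA5 was made while the groups also differed in place on the chip and in marker sums. The array names give a section letter from A to L, and si-Control lay at A, C and F, si-EZH2 at E, G and H, EZH2 at I, J and K, and T350A at B, D and L. No section held more than 1 array. With the section as a linear covariate, its order on the chip assumed to follow the alphabet, 0 of 14 integrin probes were called in any of the 6 comparisons. Over all tested probes, the calls in EZH2 against si-Control went from 1688 to 282. The EZH2 sections all came after the si-Control sections, so this fit can hardly separate section from group there. The adjusted p became 0.0883 for ITGAV, 0.151 for ITGA3 and 0.109 for ITGA5 in EZH2 against si-Control, 0.0503 for ITGAV and 0.105 for ITGA3 against si-EZH2, and 0.0566 for ITGAV in T350A against si-Control. The differences themselves were close to those above, at -0.55, 0.50, 0.52, -0.51, 0.45 and -0.44 in the same order. Linear normalized signals summed over the 10 fibroblast markers were 182661 to 183527 for si-Control, 181520 to 188435 for si-EZH2, 156996 to 161573 with EZH2 and 163424 to 175338 with T350A. The sum over 7 epithelial markers was 4359 to 4813, 3877 to 4108, 5327 to 5749 and 4548 to 4671 in that order, and CDH1, KRT5 and KRT14 were detected on no array. The sum over 4 smooth muscle markers was 6384 to 6926 in si-Control, 7572 to 9431 in si-EZH2, 7580 to 8895 with EZH2 and 6540 to 8121 with T350A, with MYH11 and DES detected on no array, so that the si-Control arrays lay under those of si-EZH2 and EZH2. The ranges of the endothelial and leukocyte sums overlapped between all groups. The part of any of these in the integrin values was not tested.

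The other alpha chains were called in no comparison. ITGA2, a collagen receptor chain, was at 8.70, 8.93 and 8.80 in si-Control, and every array of the other 3 groups was higher, between 8.95 and 9.36. Its difference from si-Control was 0.40 with T350A (adjusted p = 0.052) and 0.35 with EZH2 (adjusted p = 0.0623). ITGA4, which pairs with the ITGB1 chain into a receptor for VCAM1 and fibronectin, showed the reverse order, with 8.45, 8.46 and 8.38 in si-Control and 7.80 to 8.32 on the arrays of the other groups. Its differences from si-Control were -0.33, -0.24 and -0.35 in si-EZH2, EZH2 and T350A, with adjusted p of 0.189, 0.256 and 0.137. ITGA1, another collagen receptor chain, ranged from 7.37 to 7.91 over 12 arrays, and its difference in si-EZH2 was 0.24 (interval from 0.01 to 0.47, adjusted p = 0.295).

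No beta chain probe was called in any comparison. ITGB1, the beta chain shared by most receptors for collagen, laminin and fibronectin, was read by 2 probes detected on all 12 arrays. ILMN_1723467 ranged from 14.03 to 14.32 and ILMN_1714820 from 11.95 to 12.40. For the first, the difference of si-EZH2 from si-Control was -0.02, with an interval from -0.22 to 0.19. Another tested probe, ILMN_1784454, was detected on 9 arrays, between 4.78 and 5.38. ITGB3, the beta chain of the receptor that also serves platelets with another alpha chain, was detected on all 12 arrays between 5.04 and 5.51, near the detection limit. Its group means were 5.18, 5.17, 5.34 and 5.34 in si-Control, si-EZH2, EZH2 and T350A. ITGB5, a partner of the ITGAV chain, had 3 probes detected on all 12, with ranges of 11.91 to 12.22, 11.62 to 12.09 and 9.25 to 9.56. Its largest difference was 0.27 in T350A against si-Control, for ILMN_2311166 (adjusted p = 0.219). ITGB3 and ITGB5, whose products pair with the ITGAV chain had no call in the comparisons in which ITGAV had one; that contrast between genes was not tested.

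The other genes of the pathway were counted with 1 probe a gene, and their background is the 12640 genes tested this way. Of these, limma called 3.45% in si-EZH2 against si-Control (1.95% higher, 1.5% lower), 3.67% in EZH2 against si-EZH2 (1.87% and 1.8%) and 0.111% in T350A against si-EZH2. It called 8.8% in EZH2 against si-Control (4.32% and 4.48%), 4.21% in T350A against si-Control (2.11% and 2.1%) and 0% between T350A and EZH2. The shares of genes at an unadjusted p under 0.05 were 17.7%, 20.6%, 14.8%, 25.5%, 21.3% and 8.76% in the same order.

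Of 17 other integrin subunits on the array, 11 were tested, and ITGA2B, ITGAD, ITGAL, ITGAX, ITGB6 and ITGB8 were detected on no array. ITGA6, an alpha chain of laminin receptors, was at 5.80, 5.56 and 5.77 under si-Control, 5.55, 5.39 and 5.73 under si-EZH2, 6.19, 6.25 and 6.52 with EZH2, and 5.80, 5.69 and 5.84 with T350A. The 3 EZH2 arrays were above all other arrays. ITGA6 rose with EZH2 by 0.77 ± 0.12 against si-EZH2 (1.70-fold, adjusted p = 0.0041) and by 0.61 against si-Control (1.53-fold, adjusted p = 0.0073). With chip section as covariate the first held, and the second did not (adjusted p = 0.124). Without background correction these differences were 0.47 and 0.39, both called. T350A differed from EZH2 by -0.55, which did not pass (adjusted p = 0.195).

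ITGA11, an alpha chain of a fibroblast collagen receptor, gave 9.26, 9.07 and 8.77 under si-Control, 9.37, 9.16 and 9.13 under si-EZH2, 8.51, 8.38 and 8.64 after EZH2, and 9.07, 9.18 and 8.94 with T350A. The EZH2 arrays were the lowest 3. It fell with EZH2 by 0.71 ± 0.13 against si-EZH2 (1.63-fold, adjusted p = 0.0095) and by 0.52 against si-Control (adjusted p = 0.024). The first call was lost without si-EZH2 replicate 1 (0.0559) or EZH2 replicate 2 (0.0502). The second was lost without si-Control replicate 1 or 2 or EZH2 replicate 1 or 2 (0.0621 to 0.107), and with chip section as covariate the difference was -0.28 (adjusted p = 0.407). ITGA8 (si-EZH2 minus si-Control -0.75, adjusted p = 0.093) and ITGB4 (T350A minus si-Control 0.39, adjusted p = 0.119) were not called. Of the 11, 1 rose and 1 fell in each of both EZH2 comparisons and 0 were called by limma in the others, with 1 to 3 at an unadjusted p under 0.05 there.

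Of 29 genes of adaptor and adhesion complex proteins, which tie integrins to actin, 28 were tested and FERMT3 was detected on no array. With si-EZH2, 0 of 28 were called against si-Control by limma (3.45% of all genes), with 3 at an unadjusted p under 0.05 and a median difference of -0.05. Against si-Control, 1 rose with EZH2 (8.8% of all genes called, list median -0.05) and 2 rose with T350A (4.21%, list median -0.10). An unadjusted p under 0.05 was reached by 5 in each, beside 25.5% and 21.3% of all genes. LIMS1, a LIM protein that binds integrin-linked kinase, was called against si-Control with EZH2 (0.45, 1.37-fold, adjusted p = 0.011) and with T350A (0.43, adjusted p = 0.0225), at 10.73, 10.71 and 10.88 in si-Control and 11.15 to 11.27 on the 6 re-expression arrays. With chip section as covariate these were 0.34 (adjusted p = 0.202) and 0.39 (0.0544). The T350A call was also lost without si-Control replicate 1 or 2 or T350A replicate 2 or 3 (0.0576 to 0.0802), with median scaling (0.0558) and with the 2 groups alone (0.0817). Another LIMS1 probe, ILMN_1675387, gave 0.14 and 0.29 and was not called.

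ZYX, a focal adhesion LIM protein, was called with T350A against si-Control for the probe ILMN_1701875 (0.39, adjusted p = 0.0416), and its other probe, ILMN_2371169, gave -0.22 (adjusted p = 0.301), so the 2 probes differed in sign. The call was lost under 6 other settings and without 8 of the 12 arrays in turn (adjusted p up to 0.115), among them each si-Control and each T350A array, si-EZH2 replicate 3 and EZH2 replicate 3. RSU1, a partner of the LIMS1 protein (T350A minus si-EZH2 0.39, adjusted p = 0.170), and VASP, an actin regulator (si-EZH2 minus si-Control -0.48, adjusted p = 0.0892), were not called. No adaptor gene was called in the other 3 comparisons, in which 2 to 4 had an unadjusted p under 0.05.

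Of 32 genes of matrix and cell surface ligands of integrins, 28 were tested. VTN and TGFB1 were detected on no array, and EDIL3 and VCAM1 on 1 each. In si-EZH2 against si-Control 2 rose, TNC and TGFBI, and 13 had an unadjusted p under 0.05 (17.7% of all genes), with a median difference of 0.14 over the list beside -0.00147 over all genes. TNC encodes tenascin C, a matrix glycoprotein bound by several integrins. Its signal (probe ILMN_1719759) was 12.18, 12.20 and 12.28 under si-Control, 12.84, 12.89 and 13.05 under si-EZH2, 12.39, 12.44 and 12.30 with EZH2, and 12.67, 12.87 and 12.72 with T350A. The si-EZH2 and T350A arrays were above the si-Control and EZH2 arrays. TNC rose by 0.71 ± 0.10 in si-EZH2 against si-Control (1.63-fold, adjusted p = 0.00081), fell by 0.55 with EZH2 against si-EZH2 (adjusted p = 0.0092), and was 0.54 higher with T350A than in si-Control (adjusted p = 0.0096). The T350A difference from EZH2 of 0.38 did not pass (adjusted p = 0.290). The EZH2 call was lost without si-EZH2 replicate 3 (0.0539), and the probe ILMN_2145670 gave 0.78 (adjusted p = 0.0077), -0.43 (0.126) and 0.65 (0.0235) for the same 3 differences.

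POSTN, which encodes periostin, fell with EZH2 against si-EZH2 by 0.71 (1.64-fold, adjusted p = 0.0179), from 7.41, 7.39 and 7.48 to 6.46, 6.65 and 7.02. That call was lost without si-EZH2 replicate 1 or 3 or EZH2 replicate 1 or 2 (0.0614 to 0.0768), and the probe ILMN_1790761 gave -1.06 (0.0032). With EZH2 against si-Control, limma also called ILMN_1790761 lower (-0.67, adjusted p = 0.0181). The POSTN probe used in the counts, ILMN_2196328, was not called there (-0.40, adjusted p = 0.109). LTBP1, a binding protein of latent TGF-beta, was at 5.20, 5.33 and 5.26 in si-Control and between 5.80 and 5.98 on all 6 re-expression arrays. It rose against si-Control by 0.63 ± 0.10 with EZH2 (1.55-fold, adjusted p = 0.0016) and by 0.61 with T350A (adjusted p = 0.0039), and with chip section as covariate the EZH2 difference was 0.53 (0.0719). Without background correction the differences were 0.35 and 0.34, both called. LAMA2, a laminin chain, fell with EZH2 against si-Control by 0.46 (adjusted p = 0.0164). It was lost with chip section as covariate (-0.36, 0.240) and without si-Control replicate 3 (0.0573) or EZH2 replicate 3 (0.0776), and the probe ILMN_1788019 gave -0.35 (0.0387). SPP1 was the other gene called, higher with EZH2 than in si-Control. SPP1 and TGFBI are named here after their values were seen, as they complete these counts.

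Against si-EZH2, 0 ligand genes rose and 2 fell with EZH2 (11 at an unadjusted p under 0.05, against 20.6% of all genes, median -0.19), and limma called 0 with T350A (5 at an unadjusted p under 0.05, against 14.8% of all genes, median -0.09). Against si-Control, 2 of 28 rose and 1 fell with EZH2, where 8.8% of all genes were called. With T350A 2 rose and 0 fell, where 4.21% of all genes were called. An unadjusted p under 0.05 was reached by 11 with EZH2 (25.5% of all genes, median 0.02) and by 11 with T350A (21.3%, median 0.03).

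The genes with values most like those of ITGBL1 over the 12 arrays were found by the root mean square difference of log2 signals after subtracting each gene's own mean, a description that shares its arrays with the choice of ITGBL1. The 8 closest of 12639 genes were VASN (0.267), NOTCH2 (0.314), C10orf105 (0.367), ISCA1 (0.383), MMP11 (0.388), GUCY1A1 (0.406), OSR2 (0.410) and MAPKAP1 (0.414), where the median over all genes was 0.726. All 8 were detected on all 12 arrays and had their highest 3 values in si-Control. VASN, which encodes a TGF-beta binding membrane protein, had group means of 13.28, 11.99, 11.92 and 12.30 in si-Control, si-EZH2, EZH2 and T350A. NOTCH2, a receptor of Notch signalling, had 7.58, 6.67, 6.61 and 6.77. As with ITGBL1, its T350A replicate 3 was the highest of the arrays with the EZH2 siRNA, at 0.27 over its mean of all 12, where ITGBL1 was 0.48 over its own. MMP11, a secreted matrix protease, had 11.15, 9.95, 10.34 and 10.53. With Pearson's r as the measure of likeness, 3 of these 8 genes were again among the closest 8, and with any 1 array left out 7 or 8 of them were.

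**Figure D4:**
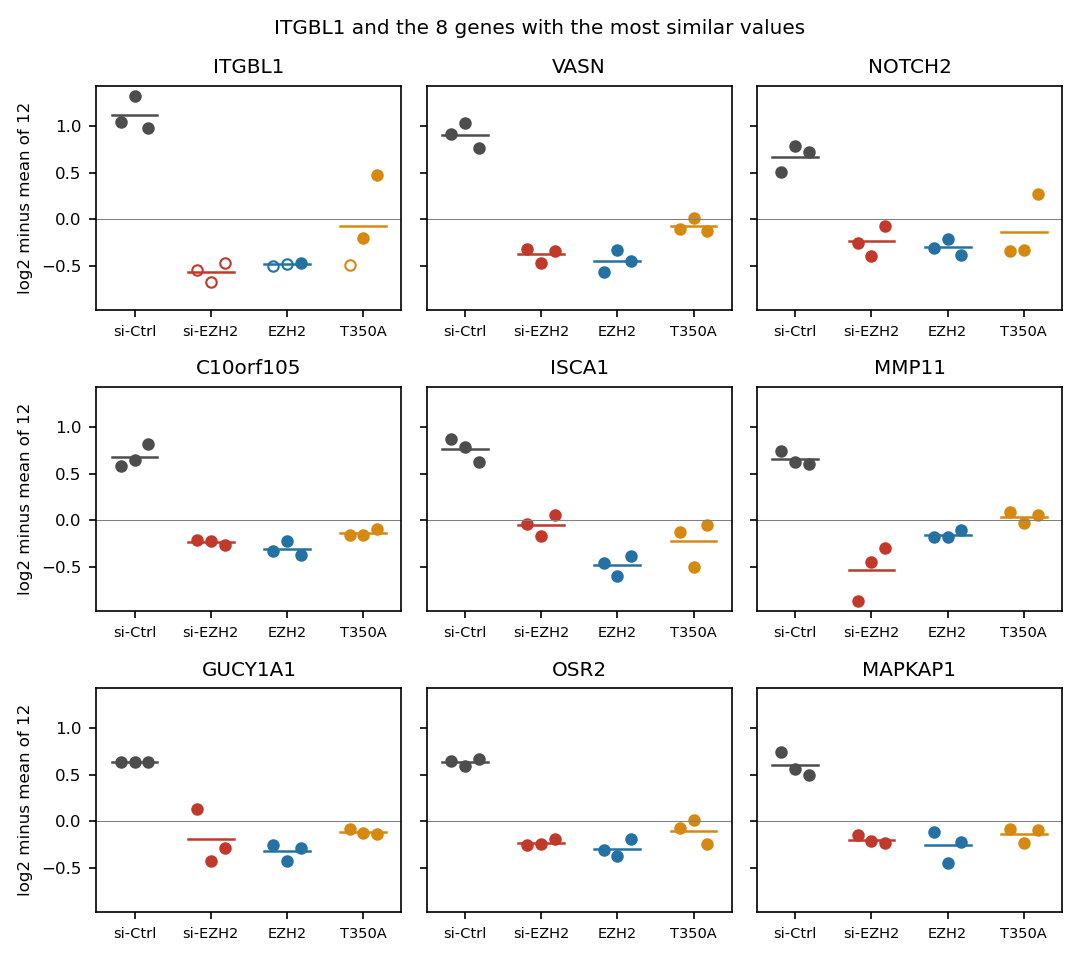
Log2 signal minus the mean over 12 arrays (y axis) of ITGBL1 and the 8 genes with the smallest root mean square difference from it, on each array by group (x axis). Filled points are detected arrays, open points are not, and lines are group means of 3. The si-Control arrays are the highest 3 in each panel.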

How the data were processed

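Gene expression was measured in 12 BJ cell samples with biotin-labelled cRNA on Illumina BeadChips. Per the file headers, the deposited non-normalized table holds 1 intensity and 1 detection p-value per probe and array for 47231 probes. The authors also deposited normalized intensity values, used here as an alternative; how they were made is not given in the sources used here. Gene symbols came from the platform annotation, in which 30113 probes have 1 symbol, 8 several and 17110 none. Intensities were background-corrected and quantile-normalized with neqc (limma 3.58.1, R 4.3.3, offset 16) and put on the log2 scale. Testing was limited to the 23313 probes detected (p under 0.05) on 3 or more of the 12 arrays. limma fitted 1 mean per group over 12 arrays, with moderated tests of 6 pairwise comparisons and Benjamini-Hochberg adjustment over all tested probes. The procedure was tested on simulated data. Samples were grouped by their titles. Samples with equal replicate numbers were not treated as paired. Deviations from group means correlated between -0.04 and 0.07 in 18 same-numbered pairs, which does not settle whether the samples were paired. Genes named from each list were up to 4 with the smallest adjusted F-test p, using the probe with the highest mean; the likeness rule took 8 genes. The members and lists were chosen with earlier results of these data known. Alternatives were background correction, offset, scaling, filter, moderation, array weights, 2 groups only, chip section, replicate block, a fold minimum of 1.5 and leaving out each array.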

Additional observations from a re-analysis of the deposited data

How the results depend on the processing

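No called difference changed sign in 144 alternative values of the members (38 lost the call) or 526 of the list genes (95 lost it). The lists were put through the alternatives after seeing the data. Many of these values could not change sign, because the difference stays the same by design. That holds for the fold minimum, the filters, limma-trend, the 2 groups alone, the replicate block and the removal of an array from a group not compared. The number of integrin probes called stayed at 0 under every alternative run for si-EZH2 against si-Control and for T350A against EZH2 re-expression. For EZH2 against si-EZH2, main count 2, it was 1 with median scaling or no filter, 0 with the 2 groups alone, with chip section as covariate or with a fold minimum of 1.5, and 0 to 2 leaving out each array. For EZH2 against si-Control, main count 3, it was 0 with chip section or the fold minimum. It was 4 without background correction, with an offset of 50, with the authors' values, with limma-trend or with array weights. It was also 4 with a detection p under 0.01 on all 12 arrays, and 2 or 3 leaving out each array. For T350A against si-EZH2, main count 0, it was 1 without background correction, with an offset of 50, with the authors' values, with a detection p under 0.01 on all 12 arrays, and with limma-trend. For T350A against si-Control, main count 1, it was 4 under the same alternatives but 3 under the detection p of 0.01, 0 with the 2 groups alone, chip section or the fold minimum, and 0 to 1 leaving out each array. Without background correction the calls over all probes rose too, to 335 and 1482 in the T350A comparisons with si-EZH2 and si-Control.

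ITGBL1's difference from si-Control without background correction, with an offset of 50 and with the authors' values was -1.01, -1.01 and -0.99 in si-EZH2, -0.95, -0.97 and -0.94 for EZH2, and -0.73, -0.75 and -0.71 for T350A. Chip section gave -2.05 for EZH2. Leaving out each array gave -1.75 to -1.58, -1.67 to -1.50 and -1.47 to -0.98. With the detection p of 0.01 ITGBL1 is not tested. A replicate block gave the same counts of integrin calls (0, 2, 0, 0, 3 and 1) and an ITGBL1 difference between T350A and EZH2 of 0.41 (adjusted p = 0.525); no same-numbered pair correlated over 0.1. It ended the calls of APBB1IP and, with T350A, of ZYX (adjusted p = 0.0623). Signal over background limits ITGBL1, ITGB3 and the dim probes of ITGA3 and ITGB1, whose fold changes shrink with added background.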

Other observations

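All 21 genes of membrane partners and regulators of integrins on the array were tested. Against si-Control, limma called 2 higher in si-EZH2 (3.45% of all genes called). With EZH2 it called 3 higher and 1 lower (8.8%), and with T350A 1 higher and 1 lower (4.21%). Against si-EZH2 it called 0 with EZH2 (3.67%) and 0 with T350A (0.111%), and 0 between T350A and EZH2 (0%). An unadjusted p under 0.05 was reached by 2 to 5 of the 21, beside 8.76% to 25.5% of all genes. PLAUR, the urokinase receptor, which associates with integrins at the cell surface, was at 8.53, 8.68 and 8.60 in si-Control (probe ILMN_2374340) and between 9.10 and 9.55 on all arrays that received the EZH2 siRNA. It rose against si-Control by 0.61 ± 0.11 in si-EZH2 (adjusted p = 0.0045), 0.76 with EZH2 (adjusted p = 0.00078) and 0.63 with T350A (adjusted p = 0.0053; SE, n = 3 per group, limma). Each of these calls held under all 24 alternatives (adjusted p up to 0.0287). The other PLAUR probes gave 0.67 and 0.72 in si-EZH2, 1.13 and 0.64 with EZH2, and 0.82 and 0.70 with T350A, all called. The PLAUR differences of EZH2 and T350A re-expression from si-EZH2 were 0.14 (adjusted p = 0.522) and 0.02 (adjusted p = 0.962), for the probe ILMN_2374340. The other probes differed from it for EZH2: ILMN_1691508 was 0.47 higher (adjusted p = 0.0301, called), and ILMN_2408543 gave -0.08 (adjusted p = 0.791). For T350A they gave 0.16 and -0.02 and were not called.

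RAP1A, a small GTPase that activates integrins, was higher than in si-Control in si-EZH2 (0.43, adjusted p = 0.0281) and with EZH2 (0.43, adjusted p = 0.0181) for the probe ILMN_1809191. Its other probe, ILMN_1766176, gave 0.30 and 0.24 and was not called. Without background correction the first probe gave 0.27 in both (adjusted p = 0.0716 and 0.0447). The RAP1A call in si-EZH2 was lost without any 1 of the si-Control or si-EZH2 arrays (adjusted p up to 0.103), and the EZH2 call without si-Control replicate 3 or EZH2 replicate 1 or 3 (up to 0.0722). APBB1IP, an adaptor between the RAP1A protein and talin, was lower against si-Control with EZH2 (-0.39, adjusted p = 0.0435) and T350A (-0.43, adjusted p = 0.0389); both calls were lost without any 1 si-Control array, si-EZH2 replicate 3, EZH2 replicate 1 or T350A replicate 1, and also without EZH2 replicate 2 or 3 for EZH2 and T350A replicate 2 or 3 for T350A (up to 0.150 and 0.121). SDC1, a cell surface proteoglycan, was higher with EZH2 than in si-Control (0.44, adjusted p = 0.0339), which was lost without any si-Control array or EZH2 replicate 1 or 2 (up to 0.127). With chip section as covariate none of the RAP1A, APBB1IP and SDC1 calls held (adjusted p of 0.0863 to 0.350).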
